A study of Homo sapiens with 192 samples.

Results

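The proteasome subunit genes were examined in plate-based snATAC-seq of HAP1, a near-haploid human cell line with an adherent habit that was derived from a chronic myeloid leukaemia line. Members were the protein-coding autosomal genes of GENCODE release 44 whose names start with PSMA, PSMB, PSMC, PSMD or PSME and a number. There were 44 of them among 19111 autosomal protein-coding genes. PSMC3IP and PSME3IP1 share only the start of the name, encode interacting proteins and were set aside, at 7 and 11 nuclei, which left 42 genes. PSMD10 lies on the X chromosome and so was not a member. Of the 42 genes, 35 were constitutive, 5 belonged to the immunoproteasome group (PSMB8, PSMB9, PSMB10, PSME1 and PSME2) and 2 were tissue restricted (PSMA8, of testis, and PSMB11, of thymic epithelium).

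CASB is a concanavalin A-based barcoding of samples, in which the lectin attaches a DNA barcode to glycoproteins of the membrane. HAP1 nuclei with and without the CASB complex, with no other treatment named, were pooled, cut in bulk by the transposase Tn5, which tags open chromatin, and sorted 1 per well into 2 plates of 96. Both plates therefore hold the same mixture of 1 line, and the label of a nucleus is not known here. Because no source names separate cultures, a plate was taken as 1 sample and no test was made from nuclei. In plate 1, 83 nuclei passed with more than 300 features, in plate 2 79 did, and 30 did not pass. A feature is a peak that the authors called on all nuclei together and set to 1001 bp. Passing nuclei held from 345 to 15351 read pairs in features, with a median of 2029 in plate 1 and 2162 in plate 2. The labels give each nucleus a number within its plate, which is taken here as its well. Wells numbered 37 to 48 and 73 to 96 of a plate were taken here to share peaks with other wells of their plate. No value for this sharing is given, and values without the 71 passing nuclei of these wells are given where they matter. Marker genes were also looked at, and all 3 mesenchymal genes examined had a feature, with CDH2 seen in 15 nuclei, VIM in 11 and ZEB1 in 3. Of 7 blood-cell genes only LCP1 had one, in 3 nuclei and not at its canonical start, and TAL1, PTPRC, CD34, SPI1, CORO1A and CD33 had none. Of 4 epithelial genes only EPCAM had one, in 8 nuclei and again not at its canonical start, and KRT8, KRT18 and CDH1 had none. Only 47.5% of all autosomal protein-coding genes had a feature at the gene start, and a gene without one may have been missed. These short lists therefore cannot check the identity of the cells.

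The proteasome is the main protease of the cytosol and nucleus and degrades proteins tagged with ubiquitin. Its barrel, the 20S core, has outer rings of alpha subunits that gate the entrance and inner rings of beta subunits, some of which carry the proteolytic sites. The 19S cap recognises and unfolds substrates with a ring of ATPases, a base and a lid. In cells exposed to interferon gamma, the beta subunits PSMB8, PSMB9 and PSMB10 replace the catalytic subunits PSMB5, PSMB6 and PSMB7, and PSME1 and PSME2 form the PA28 cap, which favours peptides for display on MHC class I.

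For each gene, a nucleus was counted as open when it held at least 1 read pair in any feature within 1000 bp of the gene start. The letters of a few promoters are shown first, immunoproteasome genes before constitutive genes that were seen most or had no feature. Each run is the 250 bases before the start of the canonical transcript (Ensembl's representative transcript of the gene), read 5′ to 3′ on the strand of the gene from the GRCh38 (hg38) reference. The first 3 are immunoproteasome genes, PSMB10 at chr16:67936851-67937100 (minus strand), PSME2 at chr14:24146611-24146860 (minus strand) and PSMB8 at chr6:32844048-32844297 (minus strand). In these, capitals mark, on either strand, GAAA and GAAA with any 2 bases between them (an interferon response motif), TTCNNNGAA (a gamma-activated motif) and GGGA and TTTCC with any 1 base between them (an NF-kB motif). Each of these genes holds such a match, while PSMB9 and PSME1, which hold none, are not shown. Other motifs are marked only in the constitutive runs below, although PSME2 also holds GC boxes and an antioxidant response match. Capitals here therefore cannot be compared with those below.
PSMB10: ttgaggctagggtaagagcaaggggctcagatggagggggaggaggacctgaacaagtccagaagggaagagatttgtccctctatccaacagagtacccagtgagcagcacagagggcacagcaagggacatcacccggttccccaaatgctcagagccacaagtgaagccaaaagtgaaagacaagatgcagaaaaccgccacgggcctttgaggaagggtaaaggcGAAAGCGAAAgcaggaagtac
PSME2: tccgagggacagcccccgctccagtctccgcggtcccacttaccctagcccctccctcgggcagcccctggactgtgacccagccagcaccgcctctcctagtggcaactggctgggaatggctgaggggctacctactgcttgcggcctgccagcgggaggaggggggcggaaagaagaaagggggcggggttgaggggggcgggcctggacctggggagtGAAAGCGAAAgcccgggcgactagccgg
PSMB8: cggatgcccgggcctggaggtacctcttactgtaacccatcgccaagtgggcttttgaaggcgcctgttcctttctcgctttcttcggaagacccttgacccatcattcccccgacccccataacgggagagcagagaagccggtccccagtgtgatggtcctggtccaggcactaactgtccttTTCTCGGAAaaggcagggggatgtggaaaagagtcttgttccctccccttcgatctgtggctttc

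The other 3 are core subunits, PSMB1 at chr6:170553308-170553557 (minus strand) and PSMA2 at chr7:42932175-42932424 (minus strand), the constitutive genes open in the most nuclei, and PSMB4 at chr1:151399323-151399572 (plus strand), a beta subunit with no feature. PSMB4 is also the only constitutive gene with the interferon response letters. Here capitals mark those 3 motifs and 6 others on either strand, CCAAT (the CCAAT box), GGGCGG (the GC box), CCGGAAG (ETS factors), AAGATGG (YY1), TGACNNNGC (the antioxidant response motif) and GCGCA and GCGC with any 1 base between them (nuclear respiratory factor).
PSMB1: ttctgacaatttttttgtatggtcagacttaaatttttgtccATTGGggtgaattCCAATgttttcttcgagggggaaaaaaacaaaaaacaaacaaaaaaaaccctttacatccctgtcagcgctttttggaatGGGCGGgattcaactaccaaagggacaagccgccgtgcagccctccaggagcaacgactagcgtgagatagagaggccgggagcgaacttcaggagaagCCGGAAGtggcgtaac
PSMA2: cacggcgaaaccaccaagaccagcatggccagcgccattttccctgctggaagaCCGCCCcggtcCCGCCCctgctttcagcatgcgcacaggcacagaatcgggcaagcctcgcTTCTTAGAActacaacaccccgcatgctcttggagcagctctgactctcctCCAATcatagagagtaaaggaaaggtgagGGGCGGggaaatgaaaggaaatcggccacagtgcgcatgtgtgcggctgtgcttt
PSMB4: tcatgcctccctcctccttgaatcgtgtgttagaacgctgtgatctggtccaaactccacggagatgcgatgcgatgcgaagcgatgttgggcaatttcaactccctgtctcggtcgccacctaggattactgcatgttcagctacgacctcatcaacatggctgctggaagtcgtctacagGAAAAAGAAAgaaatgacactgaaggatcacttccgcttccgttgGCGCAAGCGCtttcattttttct

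A feature lay at the gene start of 29 of the 42 genes (69.05%), against 47.5% of all autosomal protein-coding genes. By the canonical start it was 31 of 42 (73.81%), against 49.9%. Open genes were seen in few nuclei. The 42 genes had a median of 5 passing nuclei and a range from 0 to 19. At least 10 nuclei were reached by 8 of them (19.05%), against 20.2% of all genes, a share near this background. Their 34 features held 316 read pairs of the passing nuclei, which is 0.0661% of all read pairs in features. Of the 273 entries above 0 in these features, 234 (85.71%) were a single read pair, 35 were 2 read pairs and 4 were more.

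The constitutive genes with a feature numbered 23 of 35 (65.71%), and the immunoproteasome genes 5 of 5, beside 47.5% of all genes. The median was 5 nuclei (3.09%) for the constitutive genes and 9 nuclei (5.56%) for the immunoproteasome genes. In plate 1 the medians were 2.41% and 3.61%, and in plate 2 they were 2.53% and 6.33%. The groups overlapped gene by gene, since constitutive genes ranged from 0 to 19 nuclei and immunoproteasome genes from 6 to 16. All 5 immunoproteasome genes had an open nucleus in each plate, as did most constitutive genes with a feature, 22 of which had one in plate 1 and 22 in plate 2. Without the wells that share peaks, the medians were 2.20% and 4.40% of 91 nuclei. When a feature had to contain the gene start itself, 3 immunoproteasome genes and 20 constitutive genes had one, and after thinning to 600 read pairs per nucleus both medians were 0.685%, the level of 1 nucleus.

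Other genes of housekeeping complexes gave values close to those of the constitutive group. Cytosolic ribosomal protein genes had a feature in 46 of 73 cases (63.01%), with a median of 4 nuclei and a range from 0 to 22. Nuclear-encoded respiratory chain genes had one in 49 of 73 cases (67.12%), also with a median of 4 nuclei and with a range from 0 to 23. At 10 or more nuclei the shares were 17.14% for the constitutive proteasome genes and 16.44% for each of these complexes.

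**Figure D1:**
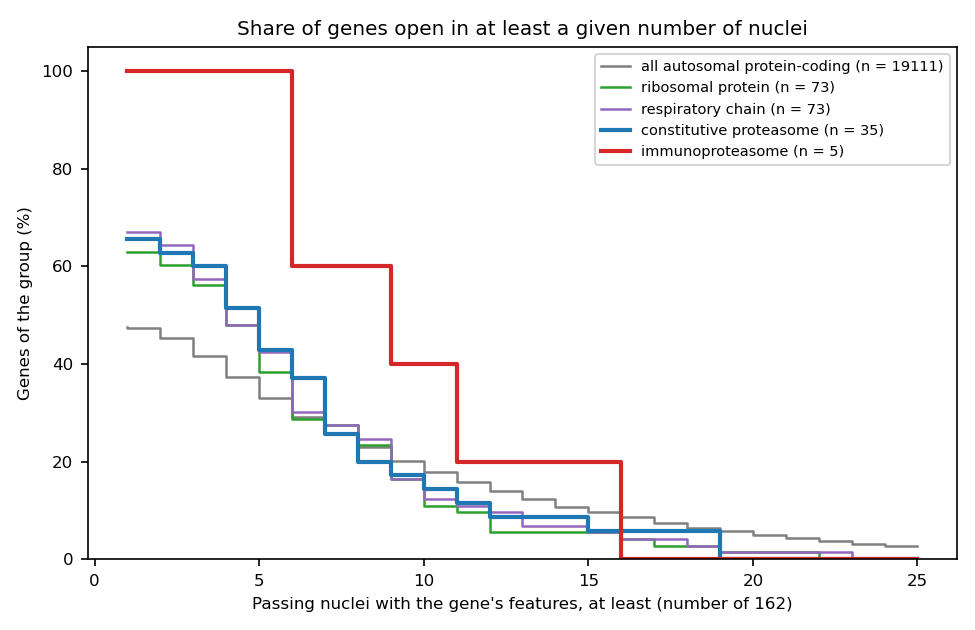
The horizontal axis is a number of passing nuclei and the vertical axis the percent of genes of a group whose features were seen in at least that many of them. The constitutive proteasome line (35 genes) runs with the ribosomal protein and respiratory chain lines, while all 5 immunoproteasome genes were seen in at least 6 nuclei and none of them in more than 16.

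The alpha ring, which forms the gate of the core, had a feature at 4 of its 7 genes (57.14%, beside 47.5% of all genes). PSMA2 was open in 8 nuclei of plate 1 and 11 of plate 2, together 11.7% (interval 7.21 to 17.7%). It had 3 features, of which chr7:42931832-42932832 was the one seen most, in 16 nuclei, and its start lies 202 bp from that of MRPL32, a mitochondrial ribosomal gene on the other strand. PSMA1 was open in 7 and 8 nuclei, at a gene start that lies 123.2 kb from the canonical one and beside that of PDE3B. The canonical start of PSMA1 had features of its own, and there 6 and 8 nuclei were open, 8.64% in all. PSMA5 was seen in 5 and 6 nuclei and PSMA3 in 5 and 3. The intervals of the plates overlapped for each of these 4 genes, which at such counts does not show that the plates agree. PSMA6 had no feature at the gene start, but its canonical start, 13.75 kb away, had one at chr14:35291819-35292819. That feature was open in 2 nuclei of plate 1 and 8 of plate 2 (6.17%, interval 3.00 to 11.1%). PSMA4 and PSMA7 had none at either start, and the nearest kept feature was 24.36 kb and 94.52 kb from the canonical start. The testis-restricted alpha gene PSMA8 was open in 2 nuclei of plate 1 and in 0 of 79 of plate 2, which allows a share of up to 3.80% (3 counts over the nuclei examined, the limit used here for a count of 0).

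The beta ring, which holds the proteolytic sites, had the lowest share of genes with a feature among the roles, which hold 2 to 8 genes each. Of its 7 constitutive genes, PSMB1 and PSMB5 had a feature (28.57%, beside 47.5% of all genes). PSMB2, PSMB3, PSMB4, PSMB6 and PSMB7 had none at either start, and the difference from all genes was not tested. PSMB1, a structural beta subunit without an active site of its own, was open in 10 nuclei of plate 1 and 9 of plate 2 (11.7%, interval 7.21 to 17.7%), level with PSMA2 as the highest of the members. It had 3 features, and those at chr6:170552925-170553925 and chr6:170553880-170554880 were each seen in 13 nuclei. The start of TBP, the TATA-binding protein, lies 1062 bp away on the other strand, so read pairs of TBP and PSMB1 cannot be told apart in these features. PSMB5, the chymotrypsin-like subunit, was open in 2 nuclei of each plate (2.47%, interval 0.677 to 6.20%). Of the catalytic subunits that immunoproteasome subunits replace, then, only PSMB5 had a feature, while PSMB6 and PSMB7 had a nearest kept feature 5.621 kb and 37.71 kb from the canonical start. A gene without a feature may be closed or missed at this depth. On chromosome 17, which holds PSMB6, 31.2% of all genes had a feature. For PSMB2, PSMB3 and PSMB4 this distance was 7.185, 48.33 and 44.7 kb. The thymus-restricted PSMB11 also had none.

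The immunoproteasome beta genes were each seen in both plates. PSMB10 was open in 6 nuclei of plate 1 and 5 of plate 2 (6.79%, interval 3.44 to 11.8%). Its feature, chr16:67935295-67936295, overlaps an exon of the canonical transcript but not its start, and its centre lies 1055 bp into the gene. The canonical start of PSMB10 lies 555 bp from this feature. Another protein-coding gene, on the same strand and without a gene symbol, has its canonical start at this feature, 1209 bp from that of PSMB10. Read pairs of these genes cannot be told apart there. PSMB8 was open in 3 nuclei of each plate (3.70%, interval 1.37 to 7.89%) through chr6:32844059-32845059, which ends on its near side 12 bp before the canonical start and contains the GENCODE gene start. The gene start of PSMB9 falls at the same feature, so both genes were counted from the same 6 nuclei. At its canonical start, 10.06 kb away, PSMB9 had its own features chr6:32852688-32853688 and chr6:32853421-32854421. These were open in 3 and 6 nuclei (5.56%, interval 2.57 to 10.3%). The start of TAP1, which encodes a subunit of the peptide transporter of MHC class I, lies 488 bp away on the other strand, and the 9 nuclei counted for TAP1 came from these same features. The stretch of chromosome 6 from 28 to 34 Mb that holds both genes had a feature at 78 of its 204 gene starts (38.24%), against 508 of 847 (59.98%) on the rest of the chromosome.

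PSME2, the PA28 beta subunit, was the immunoproteasome gene seen most. It was open in 9 nuclei of plate 1 and 7 of plate 2 (9.88%, interval 5.75 to 15.5%) through chr14:24146299-24147299. Of all genes, 90.26% were seen in fewer nuclei. RNF31, which encodes the catalytic subunit of the linear ubiquitin ligase, starts 888 bp away on the other strand. PSME1, the PA28 alpha subunit, was open in 2 nuclei of plate 1 (2.41%, interval 0.293 to 8.44%) and 7 of plate 2 (8.86%, interval 3.64 to 17.4%) through chr14:24135534-24136534. These intervals overlap, and outside the wells that share peaks PSME1 was seen in 2 of 91 nuclei and PSME2 in 7. Of the other activators, PSME4 (PA200) was open in 3 and 1 nuclei, and its start lies 120 bp from that of ACYP2. PSME3 (PA28 gamma, a nuclear activator) had no feature, the nearest kept one being 2.114 kb from its canonical start.

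**Figure D2:**
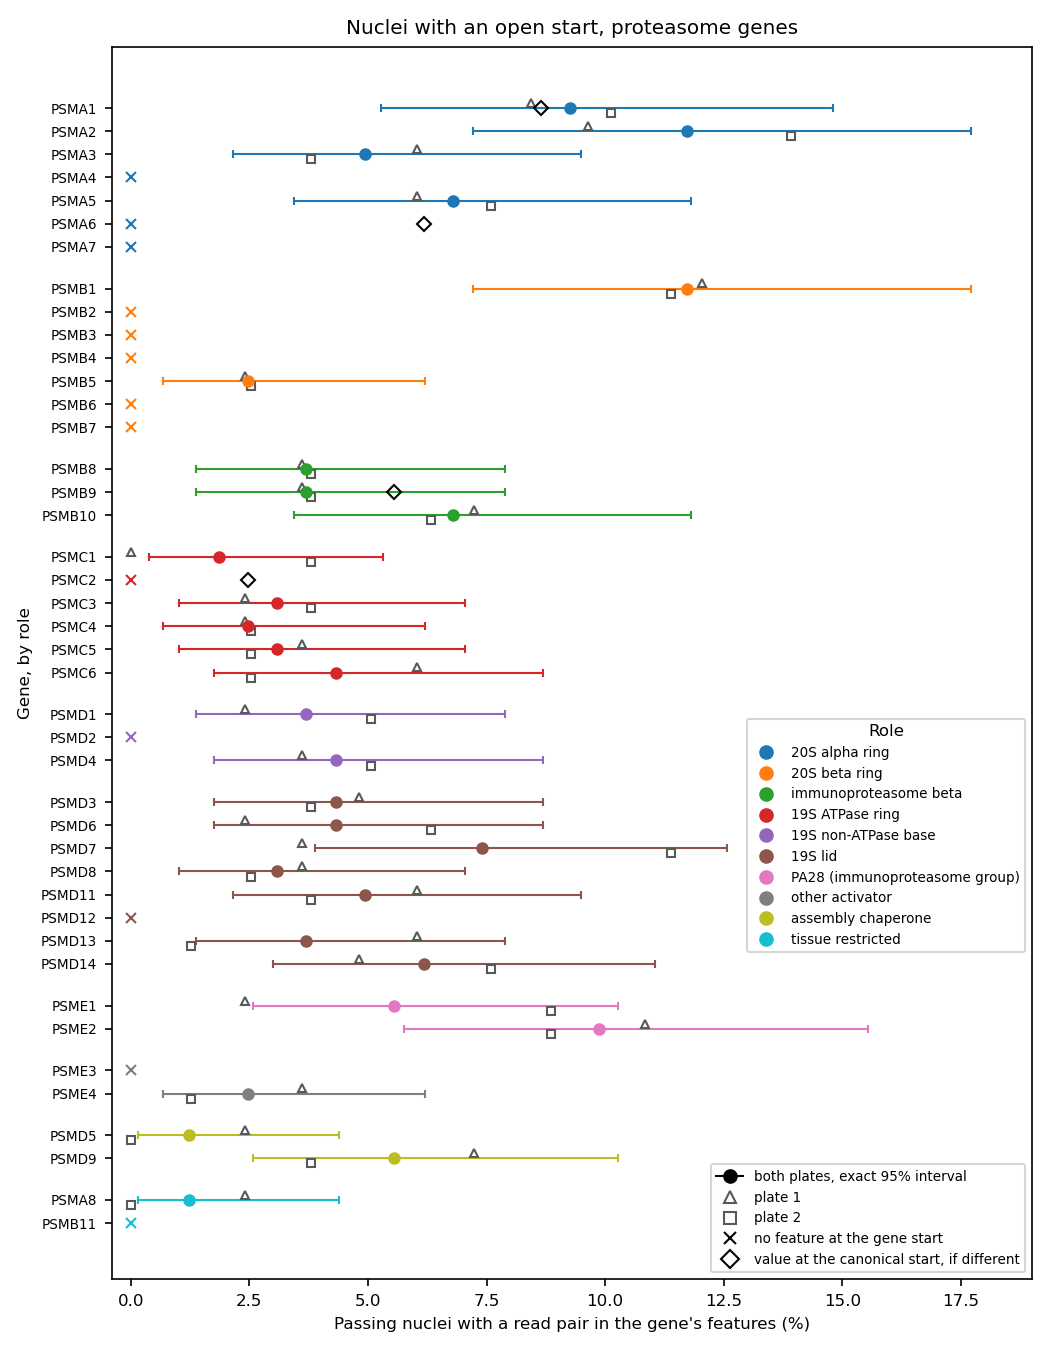
Each row is 1 of the 42 genes, grouped by role, and the horizontal axis is the percent of passing nuclei with a read pair in the gene's features. Filled points are both plates with exact 95% intervals, triangles and squares the 2 plates, crosses genes with no feature at the gene start, and diamonds the value at the canonical start where it differs. PSMB1 and PSMA2, each counted over 3 features, are highest at 11.7%, and 5 of the 7 constitutive beta genes are crosses.

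The ATPase ring, which unfolds substrates and threads them into the core, had a median of 4.5 nuclei at the gene start, beside 5 for all constitutive genes. PSMC6 was open in 5 nuclei of plate 1 and 2 of plate 2, PSMC3 in 2 and 3, PSMC5 in 3 and 2, and PSMC4 in 2 and 2. PSMC1 was open in 0 of 83 nuclei of plate 1, which allows a share of up to 3.61% by the limit of 3 counts, and in 3 of plate 2. PSMC2 had no feature at its gene start but was open in 3 and 1 nuclei at its canonical start, 19.07 kb away. By the canonical start all 6 ATPase genes therefore had a feature, beside 49.9% of all genes. PSMC5 starts 232 bp from FTSJ3, a gene for a ribosomal RNA methyltransferase. No ATPase gene reached 10 nuclei, a count that 20.2% of all genes reached.

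The other base subunits scaffold the cap and receive ubiquitin. PSMD4, a ubiquitin receptor, was open in 3 nuclei of plate 1 and 4 of plate 2, and the scaffold PSMD1 in 2 and 4. Its partner scaffold PSMD2 had no feature, the nearest kept one being 9.078 kb from the canonical start. In the lid, 7 of 8 genes had a feature (87.5%, beside 47.5% of all genes) and the median was 7 nuclei. PSMD14, the deubiquitinase that removes ubiquitin chains before degradation, was open in 4 and 6 nuclei (6.17%, interval 3.00 to 11.1%). Among the lid scaffolds, PSMD11 was seen in 5 and 3 nuclei, PSMD3 in 4 and 3, PSMD6 in 2 and 5, PSMD8 in 3 and 2 and PSMD13 in 5 and 1. PSMD13 starts 634 bp from SIRT3, a mitochondrial deacetylase gene. PSMD12 had no feature, the nearest kept one being 7.665 kb away. The assembly chaperones of the cap, PSMD9 and PSMD5, were open in 6 and 3 and in 2 and 0 nuclei.

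PSMD7, the partner of PSMD14 in the lid, differed most between plates among the members seen in at least 10 nuclei at the gene start. It was open in 3 nuclei of plate 1 (3.61%, interval 0.752 to 10.2%) and in 9 of plate 2 (11.4%, interval 5.34 to 20.5%), a 3.15-fold difference whose intervals overlap. It was the only 1 of these 8 members whose plate shares were at least 2-fold apart, where 18.9% of all such genes were. For the other 7 the shares were between 1.058-fold (PSMB1) and 1.576-fold (PSMD14) apart. PSMA6, which had 10 nuclei at its canonical start and none at the gene start, is outside this count, with 2 nuclei of plate 1 and 8 of plate 2.

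Most members kept nuclei outside the wells that share peaks. Those wells aside, 46.78% of their 233 detections remained, beside 56.17% of the passing nuclei and 44.43% of their read pairs. PSMD8 (5 nuclei) and PSMD5 (2 nuclei) were seen in 0 of the other 91 nuclei, which allows a share of up to 3.30% by the limit of 3 counts, and PSMD9 in 1 of 91 although it was seen in 9 nuclei overall. In each plate, wells 37 to 48 were taken as paired with wells 73 to 84, and wells 73 to 84 with wells 85 to 96. These 48 pairs held the same member feature 14 times, and no like count over all features is set beside it.

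Where a feature lay within 1000 bp of a canonical start, its place there was recorded. For 27 of the 31 genes with a feature at this start, a feature contained it. Of 39 such pairs of gene and feature, 28 had the centre of the feature upstream of the start. PSMB10 had its only feature furthest into the gene, centred at 1055 bp, and PSMD5 had its only feature furthest upstream, centred at -1110 bp. For 9 members the gene start or canonical start of another named protein-coding gene also lay at the features. These were PSMB8 with PSMB9, PSMB9 with TAP1 and PSMB8, PSMB1 with TBP, PSMA2 with MRPL32, PSME2 with RNF31, PSMD13 with SIRT3, PSMC5 with FTSJ3, PSME4 with ACYP2 and PSMA1 with PDE3B.

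**Figure D3:**
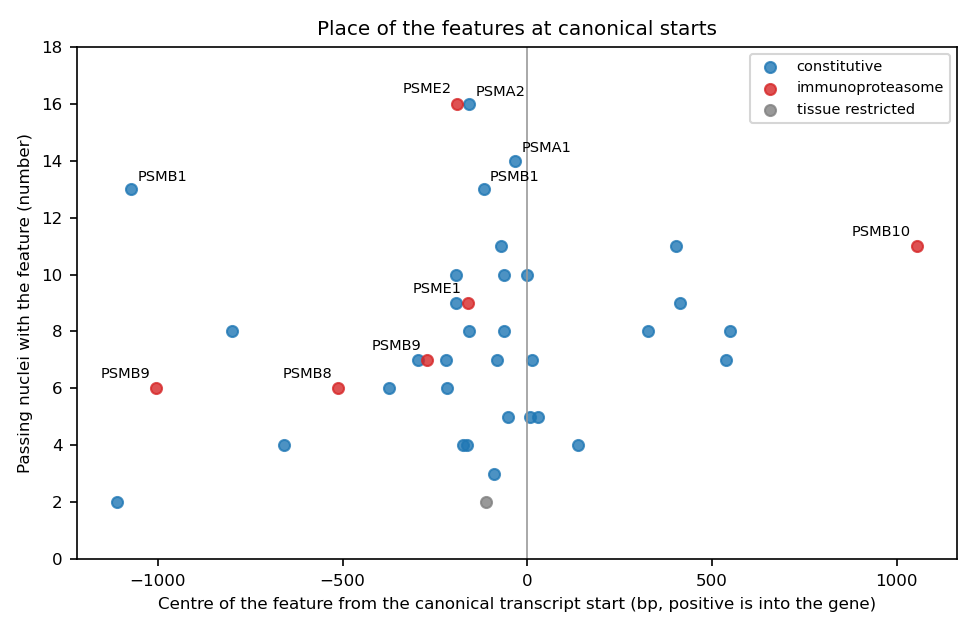
Each point is a feature at the canonical start of a member, with the distance of its centre from that start in bp on the horizontal axis (positive is into the gene) and the number of passing nuclei on the vertical axis. Most lie within 600 bp of the start. The points furthest out are PSMB10 at 1055 bp and, upstream, PSMD5 at -1110, PSMB1 at -1073 and PSMB9 at -1004 bp.

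The motifs marked in the promoters were counted in each group. A match is a description of letters and not a site of binding, and the groups were not tested against each other. The interferon response letters were in 2 of 5 immunoproteasome promoters, in 1 of 35 constitutive ones (PSMB4) and in 2.81% of all promoters of this length. In PSMB10 and PSME2 the letters were the same, GAAAGCGAAA, from 21 to 12 bases before the start in PSMB10 and from 28 to 19 bases in PSME2. The PSME2 match lay inside its feature, and the PSMB10 match lay in no kept feature. TTCNNNGAA was in PSMB8, as TTCTCGGAA inside its feature, in 5 constitutive promoters (14.29%) and in 5.77% of all. The NF-kB letters were in none of the 40 promoters and in 0.492% of all. PSMB9 and PSME1 held none of these 3 motifs in the window.

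Among the motifs of housekeeping promoters, the ETS letters CCGGAAG were in 10 constitutive promoters (28.57%) and in no immunoproteasome promoter, beside 11.95% of all. The CCAAT box was in 15 constitutive promoters (42.86%, all 34.03%) and in PSMB9. GC boxes were in 23 (65.71%, all 59.33%) and in PSMB9, PSME1 and PSME2. The antioxidant response letters, which the proteasome regulators NFE2L1 and NFE2L2 are known to read, were in 8 constitutive promoters (22.86%) and in PSMB9, PSME1 and PSME2, beside 11.35% of all. Nuclear respiratory factor letters were in PSMB4, PSMD6, PSMA6 and PSMA4 (11.43%, all 7.61%), and YY1 letters in PSMB5 and PSMD8 (5.71%, all 3.09%). CCAAT boxes were in 13 of the 25 constitutive promoters with a feature at the canonical start and in 2 of the 10 without. In the same order, GC boxes were in 17 and 6, ETS letters in 8 and 2 and antioxidant letters in 4 and 4. Nuclear respiratory factor letters were in 2 and 2 and YY1 letters in 2 and 0. This split was not tested.

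The groups were also set side by side by the base composition of their promoters. The median GC content of the promoter was 60.8% for constitutive genes and 67.2% for immunoproteasome genes, against 63.2% for all. The ratio of observed to expected CpG had a median of 0.826 in constitutive promoters, 0.548 in immunoproteasome promoters and 0.755 in all, and it was lowest of the 5 in PSMB10 (0.289). The 20 kb around the start had a median GC content of 44.53% for constitutive genes, 50.58% for immunoproteasome genes and 45.37% for all. With all genes cut into 5 equal bins of this GC content, a feature was most frequent in bin 2 (63.95%) and least frequent in bin 5, the richest in GC (34.29%). All 5 immunoproteasome genes fell in bins 4 and 5, where 43.03% and 34.29% of all genes had a feature. Constitutive genes had a feature at the canonical start in 5 of 5, 8 of 11, 6 of 9, 5 of 7 and 1 of 3 cases from bin 1 to bin 5. Constitutive genes with a feature had a median GC content of 43.65% in the surrounding 20 kb, and those without one 45.98%.

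**Figure D4:**
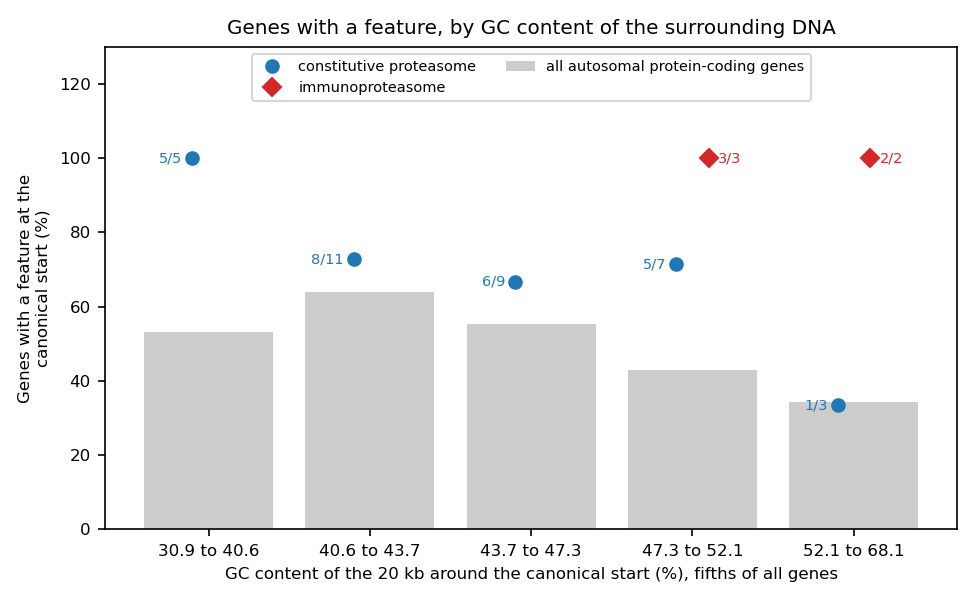
Bars are the percent of all autosomal protein-coding genes with a feature at the canonical start, in 5 equal bins of the GC content of the 20 kb around it (horizontal axis, percent). Circles are the constitutive and diamonds the immunoproteasome genes, with the number with a feature over the number in the bin, and the diamonds (3 of 3 and 2 of 2) stand in the 2 bins where the bars are lowest.

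Within single nuclei few members were open together. The median was 1 of 42 genes, and the highest count was 9. None was open in 66 nuclei (40.74%, interval 33.1 to 48.7%), 38 of plate 1 and 28 of plate 2. A constitutive gene was open in 87 nuclei (53.7%, interval 45.7 to 61.6%), 43 of plate 1 and 44 of plate 2. An immunoproteasome gene was open in 35 nuclei (21.6%, interval 15.5 to 28.7%), 16 of plate 1 and 19 of plate 2, and 26 nuclei had both. Without the wells that share peaks, 18 of 91 nuclei (19.78%) had an immunoproteasome gene open and 43 (47.25%) a constitutive gene. These counts moved with depth. In the 54 shallowest nuclei (312 to 1153 features) the median was 0 members and 4 nuclei had an immunoproteasome gene open. In the 54 deepest (2779 to 10767 features) the median was 2.5 members and the number was 23. Over all passing nuclei, Spearman's rho between members open and kept features was 0.686, a description of nuclei that share plates and libraries.

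**Figure D5:**
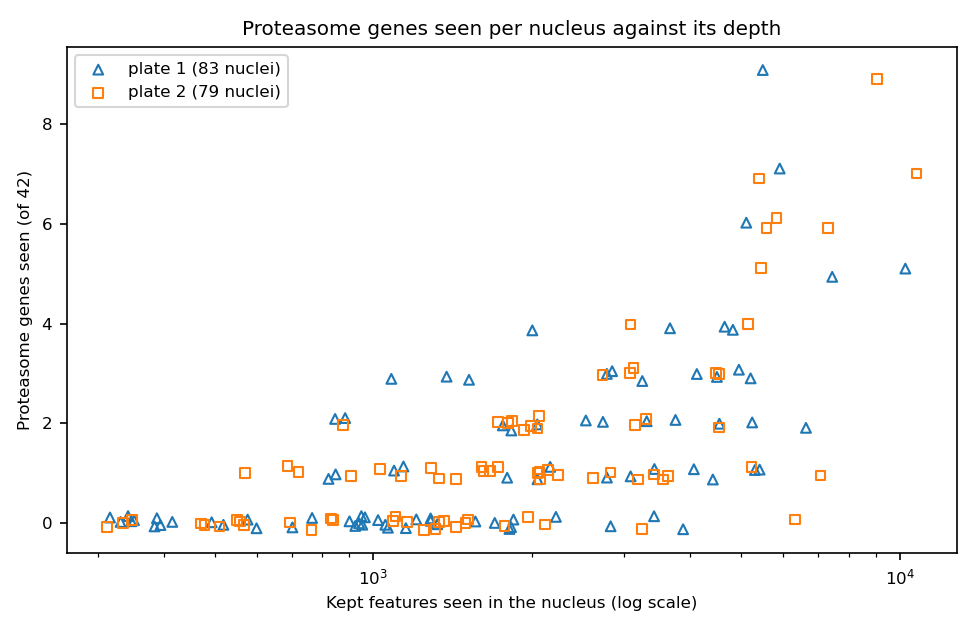
Each point is a passing nucleus, with its kept features on the horizontal axis (log scale) and the number of the 42 proteasome genes open in it on the vertical axis (shifted by up to 0.15 so that points do not hide each other). Triangles are plate 1 and squares plate 2, and the counts of 5 and more are in nuclei of high depth in both plates.

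Genes that act with the proteasome had a feature at the gene start in 14 of 18 cases (77.78%, against 47.5% of all genes), with a median of 6 nuclei. By the canonical start it was 13 of 18 (72.22%, against 49.9%). UCHL5, a deubiquitinase bound to the cap, was seen in 12 nuclei of plate 1 and 17 of plate 2 (17.9%, interval 12.3 to 24.7%), above every member. TXNL1, a thioredoxin-like partner of the cap, had the fewest of those with a feature at the gene start, 3 nuclei, and was seen in 9 at its canonical start. PSMF1 (an inhibitor of the core), PSMG2 and PSMG3 (assembly chaperones) and DDI2 (the protease that activates NFE2L1) had none. Genes of antigen processing had a feature at the gene start in 7 of 12 cases (58.33%, against 47.5% of all genes), with a median of 3.5 nuclei. By the canonical start it was 8 of 12 (66.67%, against 49.9%). ERAP1, which trims peptides, was seen most, in 7 and 10 nuclei, and NLRC5, a regulator of MHC class I, in 1 and 2. HLA-B, HLA-C, TAPBP, ERAP2 and IRF1 had none at the gene start, although IRF1 was seen in 17 nuclei at its canonical start.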

How the data were processed

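Single nuclei of HAP1 cells were measured by plate-based snATAC-seq, 96 in each of 2 plates. Per the Methods, the authors trimmed reads with fastp, set CASB barcode reads aside, used bowtie2 for alignment to hg38, discarded mitochondrial reads, duplicates and reads of low mapping quality, and ran MACS2 once over all cells. What they deposited are counts of read pairs in each feature, made per cell by featureCounts (version 1.6.0, per the file header) and not normalized, and a pair adds to every feature it overlaps. All columns of counts were matched to a cell, and 0 were left over.

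From the counts, the matrix was binarized, features seen in at least 2 cells (77053 of 80971) were kept, and a cell passed when it had more than 300 of them. A gene took every kept feature within 1000 bp of its GENCODE 44 start, and the Ensembl canonical start was an alternative added after seeing the data. Where a gene had no feature no interval is given, because the table holds called peaks only. Intervals of shares are Clopper-Pearson (exact, 95%) and reflect counting error alone, and for a count of 0 the limit given is 3 counts over the nuclei examined. Reads carry no molecular identifiers, and doublets were not called. Every member is named. Of the other lists, genes with the most and fewest nuclei and those without a feature are named, and plate differences are singled out at 2-fold in members with at least 10 nuclei. The members and lists were chosen with earlier results of these data known. Alternatives covered the cutoffs for cells and features, the window, the start, depth, plates, shared features and shared wells. The script was tested on simulated data. The software was Python 3.11.15 with SciPy 1.17.1, NumPy 2.4.6, pysam 0.24.0, pandas 2.3.3 and matplotlib 3.10.9.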

Additional observations from a re-analysis of the deposited data

Results flagged for a closer look

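The 30 cells that did not pass were used in no comparison. They held 4788 read pairs in kept features, of which 8 read pairs, in 2 of these cells, lay in features of the proteasome genes. Each of the 2 cells had 1 member open. The result was flagged because 8 is above the limit of 3 set here for flagging, which is not an expected count.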

How the results depend on the processing

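Of 64 values recomputed under other settings, 60 stayed within the limits used here (1.5 times for a count). Not all of these 60 were free to move. Kept features were set beforehand on the cells of both plates. The number of genes with a feature therefore could not change under settings that altered only the nuclei used or their depth. For such settings only the medians show how far the results depend on the nuclei. The number of immunoproteasome genes with a feature was 3 when the feature had to contain the gene start and 1, of the 1 gene then left (PSME1), without genes whose features lie at the start of another gene. With nuclei thinned to 600 read pairs, which left out 16, both medians were 0.6849% of the nuclei left, the level of 1 nucleus. The medians of the groups did not differ at that depth, and a difference between the groups was tested at no depth. Of the 35 constitutive genes, 20 to 25 had a feature under the settings that kept all of them, and 16 of the 28 whose features lie at no other start. With PSMA8, PSMB11, PSMC3IP and PSME3IP1 added it was 26 of 39. The constitutive and immunoproteasome medians reached 3.361% and 7.563% in nuclei with more than 1000 kept features. They were closer with a window of 500 bp, at 3.086% and 3.704%, where 4 immunoproteasome genes had a feature. When the feature had to contain the gene start they were 2.469% and 3.704%. Counting peaks shared by paired wells once, an alternative chosen after seeing the data, left these counts and medians at their values. No paired analysis was possible because each plate is 1 sample and no test was made. Most members rest on fewer than 10 nuclei, and a closed promoter and a missed one cannot be told apart at this depth.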

Other observations

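Members were spread unevenly over the chromosomes. Chromosome 14 held 8 of them, of which 6 had a feature at the gene start and 7 at the canonical start, with 60.55% of all its genes having one at the gene start. Chromosome 17 held 7 members (PSMB3, PSMB6, PSMC5, PSMD3, PSMD11, PSMD12 and PSME3), of which 3 had a feature, beside 31.2% of all its genes and 15 kept features per Mb. On chromosome 19, where 27.24% of genes had a feature, both members (PSMC4 and PSMD8) had one.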
